A study of Hypericum perforatum with 6 samples.

Results

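In 10 loci of the ovule transcriptome of *Hypericum perforatum* (St John's wort), at least 1 transcript variant was higher and at least 1 other variant of the same locus was lower in aposporous than in sexual ovules. Locus and variant were read from the transcript names of the de novo assembly, so that L7496_T14_18 and L7496_T5_18 are variants of locus 7496. The loci were selected on the RPKM of all 6 libraries, where RPKM is a read count per length of transcript and per mapped reads. A variant needed 10 or more summed reads in each phenotype and 10 or more reads in 3 or more libraries. A variant counted as higher when its lowest aposporous RPKM was at least 1.5 times its highest sexual RPKM, and as lower when its highest aposporous RPKM was at least 1.5 times under its lowest sexual RPKM. The 10 loci were found among 1754 loci with 2 or more transcripts past the read minimums (0.570%), among 6409 loci with at least 1 such transcript and among 25226 loci in the whole table. Locus 2, which holds 33877 of 67022 transcripts (50.5%) and 3 other loci were left out by the rule. Because these libraries chose the loci, every contrast between the phenotypes in them is given as a description and not as evidence.

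RNA was sequenced from nucellus tissue of pre-meiotic ovules that had been cut out by laser microdissection. Each phenotype, aposporous (labelled apomictic) and sexual, had 3 libraries, and each library held the RNA of a pool of 3 plants. Plants of both phenotypes were described as tetraploid, and the labels name no treatment. The aposporous and sexual plants were different accessions, so phenotype and genotype cannot be told apart, and in bulk tissue fewer cells of a type and less RNA per cell cannot be told apart either. Mapped reads, recovered from the RPKM values, ranged from 29355488 to 39483349 per library. Pearson correlations of log2 values over transcripts ran from 0.896 to 0.968 within phenotypes and from 0.873 to 0.944 between them, and transcripts are not independent points. The labelled tissue was not checked against marker genes, because the transcript names carry no gene names.

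In aposporous plants, a somatic cell of the nucellus, the tissue that surrounds the meiotic lineage of the ovule, forms an unreduced embryo sac without meiosis, and a clonal embryo can arise from it. In a de novo assembly without a genome, transcripts with overlapping sequence are collected into a locus. Variants of a locus can therefore be splice forms of a gene, alleles or homoeologous copies of a polyploid, close members of a gene family, or fragments of the same RNA. Which of these the variants described here are was not tested, and no gene name or function is given to them. How reads that fit several variants equally well were assigned is not given in the sources used here, so levels of near-identical variants are uncertain.

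Across the 1754 loci, 121 had a higher and no lower variant, 83 had a lower and no higher variant, 10 had both and 1540 had neither. In the whole table, 2.95% of the 32277 transcripts past the read minimums were higher by the rule and 2.48% were lower. The 10 loci held 94 transcripts, of which 67 passed the minimums. Of these, 11 were higher, 10 were lower and 46 were neither. Among the 27 transcripts that did not pass, 24 had 10 reads in fewer than 3 libraries, and 22 had fewer than 10 summed reads in a phenotype, the 3 others included. Only locus 3291 had more than a single variant on the same side, with 2 higher variants and 1 lower variant.

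**Figure D1:**
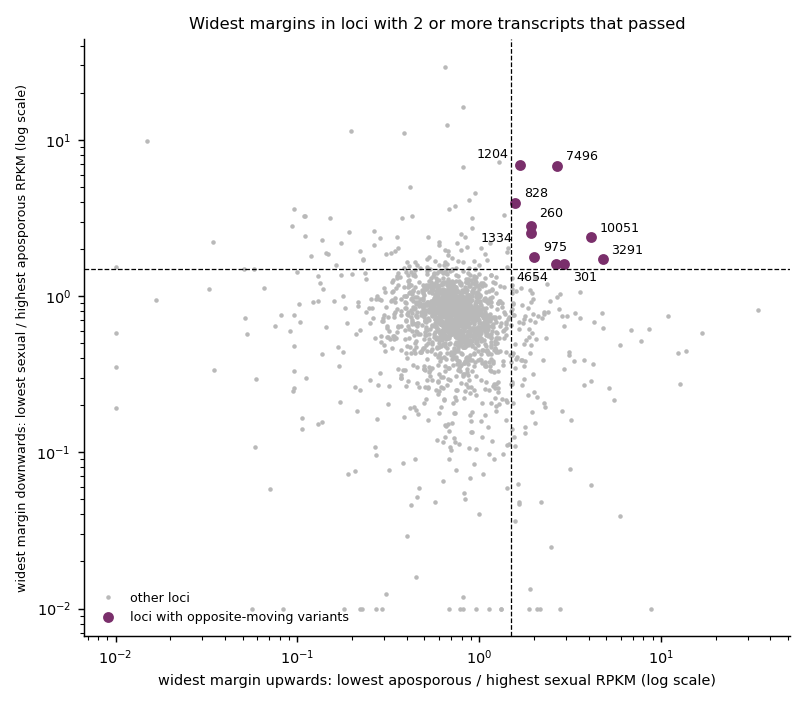
Each point is a locus with 2 or more transcripts that passed; the x axis gives its widest margin upwards (lowest aposporous over highest sexual RPKM) and the y axis its widest margin downwards (lowest sexual over highest aposporous RPKM), both on log scales, with values under 0.01 drawn at 0.01. Dashed lines mark the fold of 1.5, and the 10 loci with opposite-moving variants, with their numbers, are the points past both lines.

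Taking the narrower of its margins upwards and downwards, locus 7496 was the most widely separated of the 10, and it had only the opposite-moving pair, 2 transcripts, in the table. L7496_T14_18 (1280 nt) had 1.68, 1.98 and 2.10 RPKM in aposporous ovules, against 0.626, 0.463 and 0.529 RPKM in sexual ovules. L7496_T5_18 (894 nt) had 0.419, 0.221 and 0.142 RPKM in aposporous ovules, against 3.88, 2.87 and 2.93 RPKM in sexual ovules. The 2 variants thus changed places: the longer variant was the more abundant in every aposporous library and the shorter in every sexual library. Neither variant overlapped between phenotypes, which the rule requires of every opposite-moving variant. The longer variant averaged 1.92 ± 0.218 RPKM in aposporous and 0.540 ± 0.0820 RPKM in sexual ovules (SD, n = 3 each), a ratio of 3.56, and the shorter averaged 0.261 ± 0.143 RPKM in aposporous and 3.22 ± 0.566 RPKM in sexual ovules, 12.4 times lower. The longer variant held 80.0%, 90.0% and 93.7% of the RPKM of the locus in aposporous libraries, against 13.9%, 13.9% and 15.3% in sexual libraries. Levels were low, with 676 reads for the locus over the 6 libraries, of which L7496_T5_18 had 23 in aposporous and 318 in sexual ovules.

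Locus 10051 had the same reversal at a higher level. L10051_T6_11 (502 nt) had 46.9, 60.2 and 42.9 RPKM in aposporous ovules, against 8.19, 4.83 and 10.4 RPKM in sexual ovules. L10051_T4_11 (412 nt) had 16.6, 0.205 and 6.33 RPKM in aposporous ovules, against 46.7, 45.7 and 39.5 RPKM in sexual ovules. L10051_T6_11 was the most abundant variant in all aposporous libraries and L10051_T4_11 in all sexual libraries, with no overlap between phenotypes for either. The aposporous pools differed widely in L10051_T4_11, which was nearly absent from pool 2 and averaged 7.72 ± 8.29 RPKM in aposporous and 44.0 ± 3.90 RPKM in sexual ovules (SD, n = 3 each). Despite these shifts, the summed RPKM of the locus was 64.3, 60.8 and 50.4 in aposporous libraries, against 56.2, 51.3 and 51.5 in sexual libraries. These sums overlapped between phenotypes, and a difference in the total was not tested. The share of L10051_T6_11 averaged 85.7 ± 13.1% in aposporous and 14.8 ± 5.43% in sexual libraries, and the third transcript of the locus stayed at 1.48 RPKM or less in every library.

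**Figure D2:**
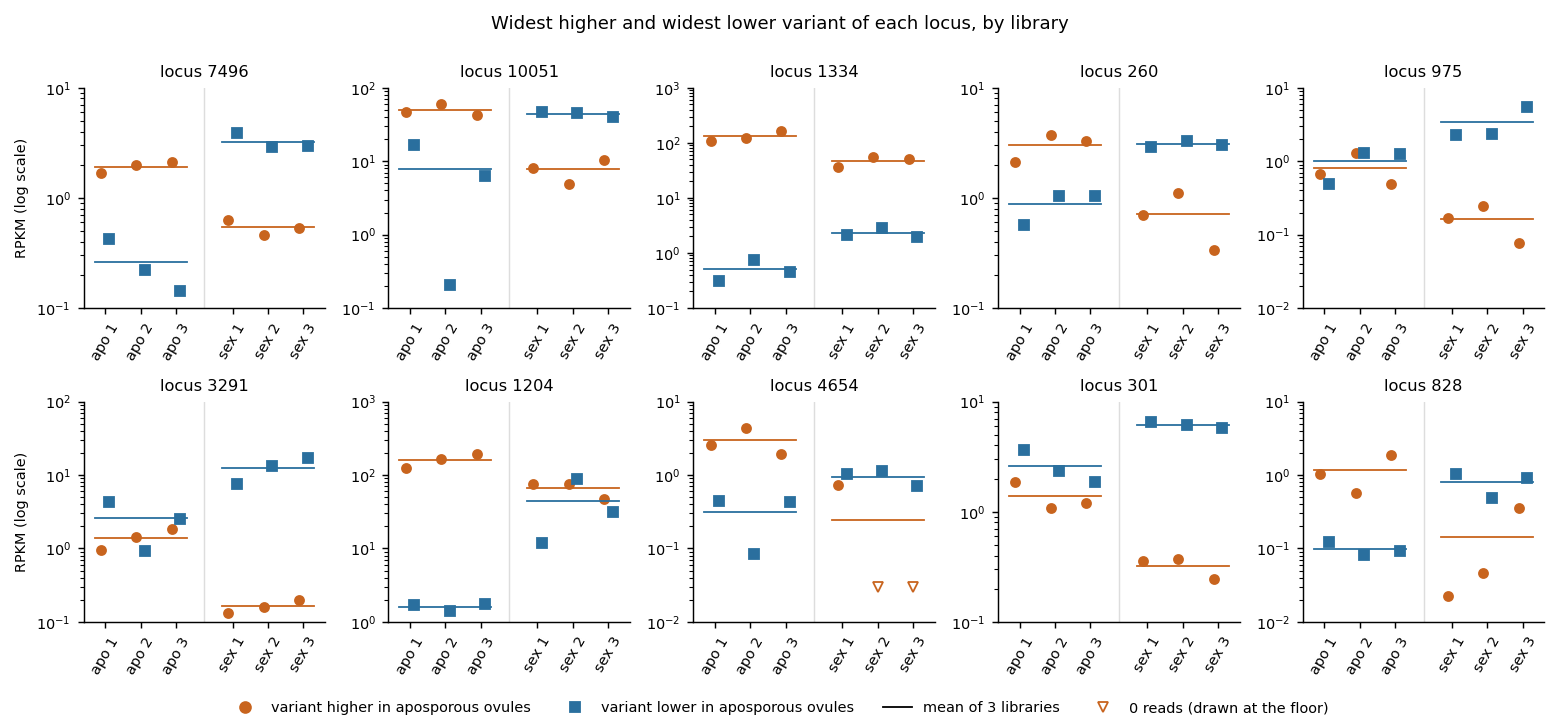
RPKM on a log scale of the widest higher variant (circles) and the widest lower variant (squares) of each locus in the 3 aposporous and 3 sexual libraries, with lines at the mean of each phenotype and open triangles for libraries with 0 reads. In loci 7496, 10051, 260, 4654 and 828 the higher variant lies above the lower one in every aposporous library and below it in every sexual library.

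In locus 1334 the higher variant was abundant and the lower variant was not. L1334_T29_97 (1427 nt) had 108.5, 122.9 and 166.3 RPKM in aposporous ovules, against 36.9, 55.9 and 50.2 RPKM in sexual ovules. L1334_T68_97 (1197 nt) had 0.313, 0.754 and 0.444 RPKM in aposporous ovules, against 2.16, 2.86 and 1.92 RPKM in sexual ovules. The phenotypes did not overlap for either variant, and L1334_T29_97 exceeded L1334_T68_97 in every library. The leading transcript of the locus was L1334_T41_97 in all sexual libraries and in aposporous pool 1, and L1334_T29_97 in aposporous pools 2 and 3. L1334_T29_97 held 43.6 ± 7.88% of the locus in aposporous and 25.6 ± 9.40% in sexual libraries (SD, n = 3 each), and L1334_T68_97 held 0.166 ± 0.0715% in aposporous and 1.20 ± 0.190% in sexual libraries.

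The sum of locus 1334 was 284.7, 306.3 and 315.7 RPKM in aposporous libraries, against 218.6, 230.0 and 141.1 RPKM in sexual libraries. Sexual pool 3 stood apart here, with 9.23 RPKM of L1334_T54_97 where the other 5 libraries had 44.5 to 54.0 RPKM, and with 0.923 RPKM of L1334_T88_97 and 0.586 RPKM of L1334_T91_97. L1334_T88_97 was also without overlap, at 9.80, 8.42 and 14.3 RPKM in aposporous ovules, against 5.73, 7.43 and 0.923 RPKM in sexual ovules, but under the fold of 1.5 between the nearest libraries.

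In locus 1204 the lower variant was 27.6 times lower in mean in aposporous than in sexual ovules, and 13.6 times lower without sexual pool 2. L1204_T32_102 (262 nt, the shortest of the opposite-moving variants) had 1.69, 1.40 and 1.74 RPKM in aposporous ovules, against 11.9, 89.6 and 31.8 RPKM in sexual ovules. L1204_T29_102 (882 nt) had 126.1, 162.9 and 195.7 RPKM in aposporous ovules, against 75.1, 75.1 and 46.7 RPKM in sexual ovules. The aposporous pools agreed closely on L1204_T32_102, at 1.61 ± 0.184 RPKM (SD, n = 3), while the sexual pools spread widely, at 44.5 ± 40.4 RPKM. L1204_T29_102 was the leading transcript in every library other than sexual pool 2, where L1204_T32_102 led. L1204_T32_102 held 0.812 ± 0.208% of the locus in aposporous and 29.8 ± 17.7% in sexual libraries, and L1204_T29_102 held 78.9 ± 2.16% in aposporous and 50.5 ± 13.0% in sexual libraries. The sums overlapped, at 160.7, 200.4 and 254.0 RPKM in aposporous libraries, against 119.9, 204.5 and 89.6 RPKM in sexual libraries.

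Locus 3291 had 2 higher variants and a lower one. L3291_T212_224 (1185 nt) had 0.949, 1.45 and 1.82 RPKM in aposporous ovules, against 0.131, 0.159 and 0.199 RPKM in sexual ovules. L3291_T32_224 (453 nt) had 1.05, 1.93 and 1.57 RPKM in aposporous ovules, against 0.400, 0.238 and 0.195 RPKM in sexual ovules. L3291_T216_224 (1421 nt) had 4.34, 0.913 and 2.51 RPKM in aposporous ovules, against 7.48, 13.1 and 16.9 RPKM in sexual ovules. Neither higher variant exceeded L3291_T216_224 in aposporous pools 1 and 3, whereas both did in pool 2. L3291_T216_224 led the locus in sexual pools 2 and 3, and in no aposporous library. The sum of the locus was nearly the same in both phenotypes, at 44.2 ± 10.2 RPKM in aposporous and 47.7 ± 8.11 RPKM in sexual libraries (SD, n = 3 each). L3291_T212_224 had 179 reads in aposporous and 21 reads in sexual ovules, and L3291_T32_224 had 73 reads in aposporous and 14 reads in sexual ovules.

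**Figure D3:**
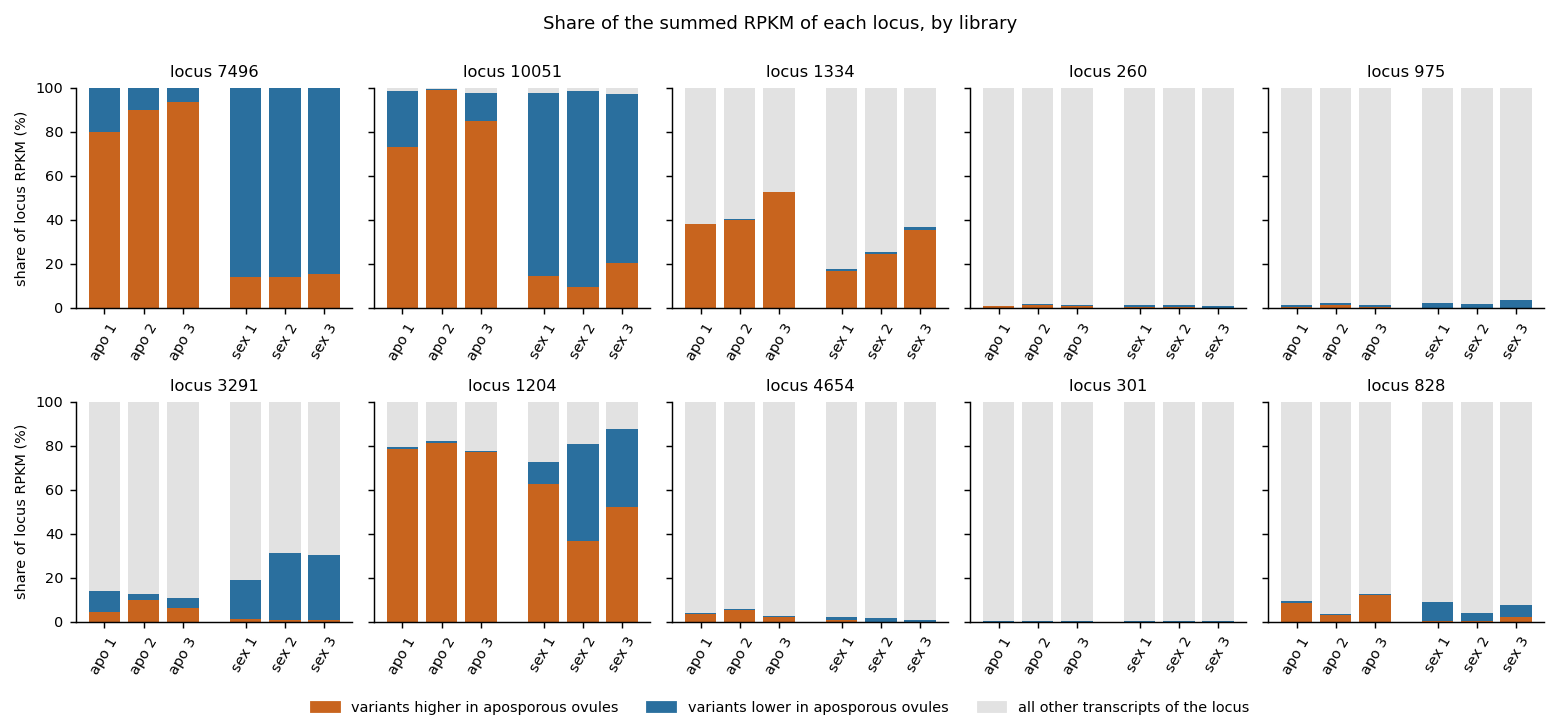
Share of the summed RPKM of each locus, in percent, held in each library by its higher variants, its lower variants and all its other transcripts. The opposite-moving variants hold most of loci 7496, 10051 and 1204 in both phenotypes and small parts of loci 260, 975, 4654, 301 and 828.

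In 5 loci the opposite-moving variants were minor forms, below 15% of the RPKM of the locus in both phenotypes on average. In locus 260, L260_T495_560 (707 nt) had 2.12, 3.75 and 3.26 RPKM in aposporous ovules, against 0.695, 1.11 and 0.333 RPKM in sexual ovules. L260_T515_560 (1803 nt, the longest of the opposite-moving variants) had 0.567, 1.03 and 1.03 RPKM in aposporous ovules, against 2.91, 3.30 and 3.01 RPKM in sexual ovules. The order of the pair was reversed in every library, as in loci 7496 and 10051. Both variants together held 1.33 ± 0.423% of the locus in aposporous and 1.20 ± 0.170% in sexual libraries (SD, n = 3 each), since the sum was 297.6 ± 57.3 RPKM in aposporous and 315.8 ± 19.4 RPKM in sexual libraries.

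Locus 4654 had a variant that was not counted in some sexual pools. L4654_T14_120 (1128 nt) had 2.60, 4.40 and 1.95 RPKM in aposporous ovules, against 0.734, 0 and 0 RPKM in sexual ovules. These values rest on 86, 176 and 87 reads in aposporous pools, against 32, 0 and 0 reads in sexual pools, and a level of 3 reads, which a count of 0 does not exclude, would be 0.0717 RPKM in sexual pool 2 and 0.0783 RPKM in sexual pool 3. The opposite variant, L4654_T25_120 (1012 nt), had 0.438, 0.0836 and 0.425 RPKM in aposporous ovules, against 1.02, 1.12 and 0.699 RPKM in sexual ovules. L4654_T14_120 was the higher of the 2 variants in every aposporous library and the lower in every sexual library. The sums of the locus overlapped, with 80.8 ± 5.49 RPKM in aposporous and 85.2 ± 14 RPKM in sexual libraries (SD, n = 3 each).

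The remaining pair with a reversal in every library was in locus 828. L828_T39_147 (1154 nt) had 1.03, 0.562 and 1.87 RPKM in aposporous ovules, against 0.0224, 0.0467 and 0.357 RPKM in sexual ovules, on 35, 23 and 85 reads in aposporous pools and 1, 2 and 14 reads in sexual pools. L828_T73_147 (1378 nt) had 0.124, 0.0819 and 0.0919 RPKM in aposporous ovules, against 1.03, 0.489 and 0.919 RPKM in sexual ovules. Sexual pool 3 had most of the sexual reads of L828_T39_147 and set its margin, the narrowest of the 10 loci. In all 6 libraries L828_T117_147 was the leading transcript, at 7.76, 13.2 and 7.98 RPKM in aposporous ovules, against 8.43, 9.58 and 7.62 RPKM in sexual ovules, and the opposite-moving pair were minor variants.

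Locus 975 had its pair at low counts. L975_T91_103 (772 nt) had 0.662, 1.28 and 0.492 RPKM in aposporous ovules, against 0.168, 0.244 and 0.0763 RPKM in sexual ovules, with 65 reads in aposporous and 14 reads in sexual ovules. L975_T6_103 (420 nt) had 0.487, 1.28 and 1.27 RPKM in aposporous ovules, against 2.28, 2.38 and 5.47 RPKM in sexual ovules. The phenotypes did not overlap for either variant. The aposporous pools did not share an order, since L975_T91_103 exceeded L975_T6_103 in pool 1 and lay under it in pool 3. L975_T61_103 was the leading transcript in every library, at 82.8, 84.3 and 100 RPKM in aposporous ovules, against 91.8, 120.9 and 132.0 RPKM in sexual ovules.

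Locus 301 was the most abundant of the 10 and its pair was among its minor variants. L301_T252_420 (363 nt) had 1.88, 1.09 and 1.19 RPKM in aposporous ovules, against 0.356, 0.371 and 0.243 RPKM in sexual ovules, on 51 reads in aposporous and 13 reads in sexual ovules. L301_T126_420 (598 nt) had 3.65, 2.36 and 1.86 RPKM in aposporous ovules, against 6.53, 6.13 and 5.81 RPKM in sexual ovules. L301_T126_420 was above L301_T252_420 in all 6 libraries, so that the phenotypes differed in the ratio of the pair and not in its order. Together they held 0.221 ± 0.0671% of the locus in aposporous and 0.387 ± 0.0804% in sexual libraries (SD, n = 3 each), beside a locus sum of 1810.3 ± 105.5 RPKM in aposporous and 1714.9 ± 280.9 RPKM in sexual libraries.

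Several transcripts of these loci were kept out by the read minimums because they were close to 0 in a phenotype. L301_T72_420 (992 nt) had 0.137, 0.0853 and 0.0255 RPKM in aposporous ovules, against 36.4, 37.7 and 54.5 RPKM in sexual ovules, or 8 reads in aposporous and 4616 reads in sexual ovules. L301_T37_420 had 0 reads in each aposporous library and 122 reads in sexual ovules, at 0.861, 3.08 and 1.35 RPKM. L828_T35_147 lay on the other side, with 26, 37 and 28 reads in aposporous pools and 0, 1 and 3 reads in sexual pools. L260_T353_560 had 97, 1 and 95 reads in aposporous pools and 1, 0 and 0 reads in sexual pools, so that aposporous pool 2 was like the sexual pools. These 4 transcripts were singled out after their values were seen.

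**Figure D4:**
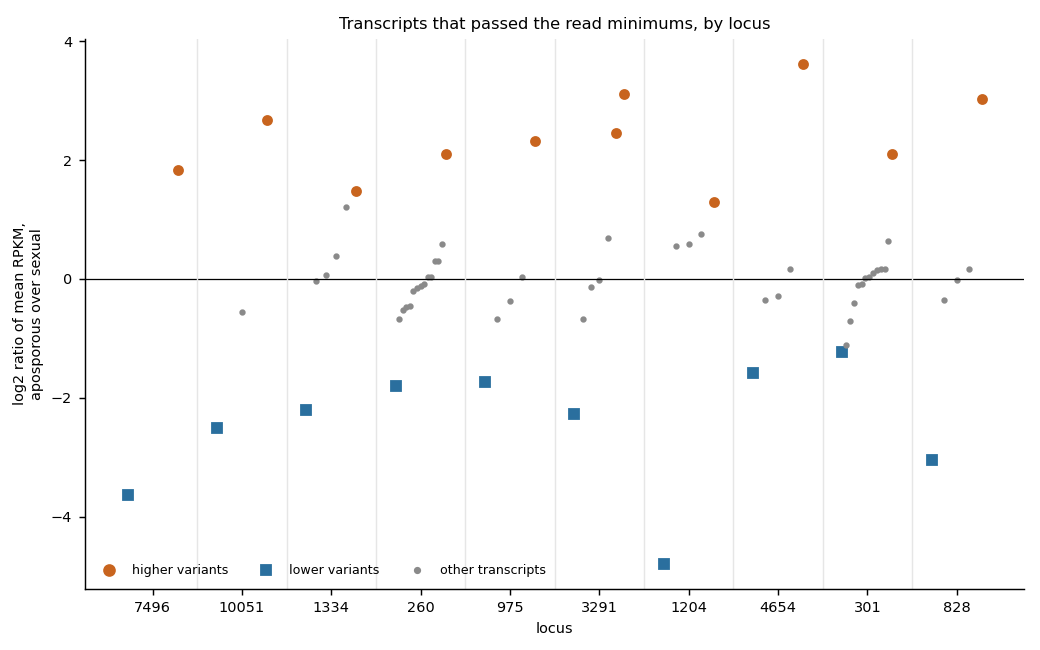
Log2 ratio of mean RPKM, aposporous over sexual, of the 67 transcripts that passed the read minimums, grouped by locus, with the 11 higher variants as circles, the 10 lower variants as squares and the 46 other transcripts as small points. The higher variants lie between 1.30 and 3.61, the lower variants between -4.79 and -1.23 and the other transcripts between -1.11 and 1.21.

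The log2 ratio of mean RPKM, aposporous over sexual, ran from 1.30 to 3.61 in the 11 higher variants (median 2.32) and from -4.79 to -1.23 in the 10 lower variants (median -2.24). Leaving out 1 library moved the ratio of means by over 1.5 times in 5 of the 21 variants. L828_T39_147 was 8.12 times higher in aposporous ovules and 33.4 times higher without sexual pool 3, and L4654_T14_120 was 12.2 times higher and had 0 reads in sexual ovules without sexual pool 1. L3291_T216_224 was 4.82 times lower and 7.29 times lower without aposporous pool 1, and L10051_T4_11 was 5.70 times lower and 13.5 times lower without aposporous pool 1. The fifth was L1204_T32_102, given above. The 46 other transcripts of the same loci that passed had a median log2 ratio of -0.01, with 22 higher and 24 lower in mean, and 44 of them overlapped between phenotypes. The exceptions were L1334_T88_97, given above, and L975_T53_103, with 15.2, 16.5 and 7.88 RPKM in aposporous ovules, against 18.1, 24.5 and 20.1 RPKM in sexual ovules. In 7 of the 9 loci that had other transcripts past the minimums, all of those overlapped between phenotypes. The rule itself favours this overlap, since the 46 transcripts are those short of the fold of 1.5. Transcripts under the read minimums, L301_T72_420 among them, are not counted here. The share of overlap over all transcripts was not computed, so the overlap does not show that the rest of a locus was unchanged.

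Summed over all transcripts, the 10 loci had log2 ratios from -0.79 to 0.62 with a median of 0.00, and the 1754 loci had a median of -0.04 with quartiles at -0.31 and 0.26. The sum was higher in aposporous libraries in 5 loci and lower in 5. It did not overlap between phenotypes in 3 of the 10 loci, against 19.0% of the 1754 loci. These were locus 7496, with 2.10, 2.20 and 2.24 RPKM in aposporous libraries, against 4.50, 3.33 and 3.46 RPKM in sexual libraries, locus 975, with 100.9, 105.8 and 110.8 RPKM in aposporous libraries, against 113.8, 150.5 and 159.7 RPKM in sexual libraries, and locus 1334, given above. The choice of loci with a variant on each side bears on these sums as well.

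**Figure D5:**
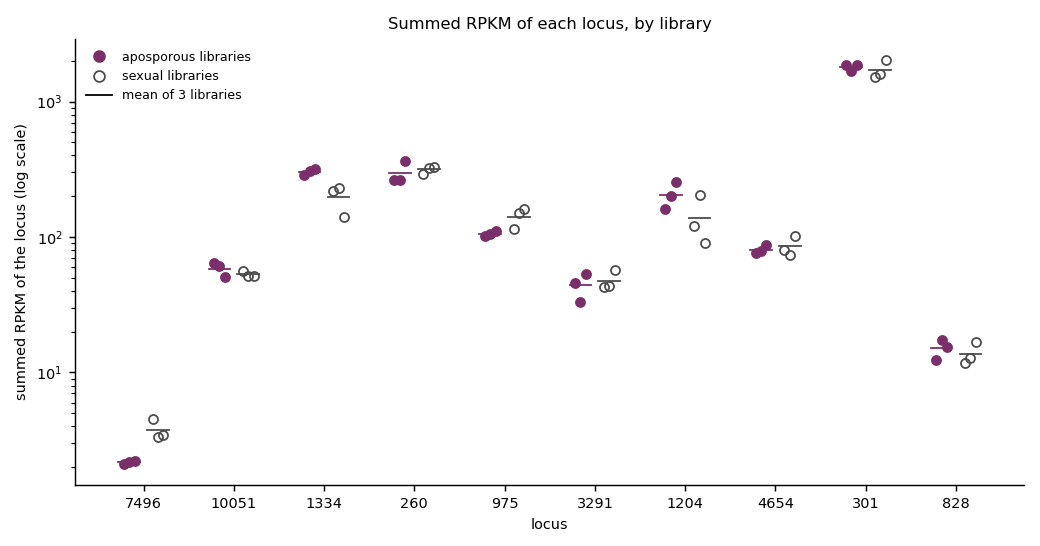
Summed RPKM of each locus on a log scale in the 3 aposporous libraries (filled) and the 3 sexual libraries (open), with lines at the mean of each phenotype. The phenotypes are apart in loci 7496, 975 and 1334 and overlap in the other 7 loci.

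A pair of variants whose order by RPKM was reversed between the phenotypes in every library was found in 6 of the 10 loci, against 69 of the 1754 loci (3.93%), a share on which the choice of the loci bears directly. In loci 7496, 10051, 260, 4654 and 828 the widest pair was reversed. Locus 260 had 6 reversed pairs in all, and locus 301 had 2, neither of them the widest. The leading transcript was the same in all 6 libraries in loci 301, 828 and 975. It was never shared between phenotypes in loci 7496 and 10051.

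The 10 loci had more variants than others, which gives the rule more chances to find a pair. They had a median of 5 transcripts past the minimums and 8 in the table, against 2 and 3 over the 1754 loci. The transcript names end in a number shared by all variants of a locus, from 11 in locus 10051 to 560 in locus 260, and what it counts is not stated in the sources used here. The opposite-moving variants had a median length of 894.0 nt, against 792.0 nt over all transcripts that passed in the 1754 loci. The widest higher variant was longer than the widest lower variant in 6 loci and shorter in 4. The opposite-moving variants had a median of 341.0 summed reads, against 991.0 over all transcripts that passed in the 1754 loci, although the 10 loci had a median of 22893.5 reads, against 5231.0 over the 1754 loci.

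Limma on log2(RPKM + 1), fitted across 33117 transcripts with Benjamini-Hochberg adjustment, called 1.5% of transcripts higher and 0.610% lower in aposporous ovules at an FDR of 0.05. Of the higher variants, 2 of 11 were called, L10051_T6_11 (limma log2 fold change 2.57 ± 0.32 SE, adjusted p = 0.00703) and L1334_T29_97 (1.45 ± 0.26 SE, adjusted p = 0.0288). Of the lower variants, 2 of 10 were called, L1204_T32_102 (-3.70 ± 0.62 SE, adjusted p = 0.0238) and L7496_T5_18 (-1.74 ± 0.31 SE, adjusted p = 0.0277). The scale log2(RPKM + 1) understates changes of low variants. No locus had calls in both directions among these variants by limma (0 of 10), although L1204_T29_102 was just over the limit (1.30 ± 0.27 SE, adjusted p = 0.0508). At an unadjusted p under 0.05 the counts were 10 loci by limma and 7 by voom on the recovered reads, which also gave 0 loci after adjustment. Small unadjusted p values follow from the selection of variants without overlap. The limma fits use the contrast that chose the loci, and nothing is read from their counts here. Without any 1 of the aposporous libraries, 0 of the 10 loci had a call among the opposite-moving variants. Those fits tested only 7 of the 11 higher variants. Of 31021 to 31513 transcripts in all, they called 29 to 53 higher and 12 to 26 lower. Without sexual pools 1, 2 and 3 the loci with a call numbered 2, 1 and 3. Those fits called 158, 94 and 373 transcripts higher and 51, 10 and 105 lower. Among the other transcripts of the loci, limma called L301_T72_420, described above (-5.32 ± 0.34 SE, adjusted p = 0.00037).

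How far each locus was from the limit of the rule differed. The loci just inside were 828, with a margin upwards of 1.57, and 301 and 4654, with margins downwards of 1.59 and 1.60. Just outside were loci 7613, 71733, 7565 and 6487, with margins upwards of 1.44, 1.43, 1.42 and 1.37, and locus 8724, with a margin downwards of 1.32. In locus 7613, L7613_T85_127 had 6.02, 5.49 and 6.49 RPKM in aposporous ovules, against 3.56, 3.07 and 3.81 RPKM in sexual ovules, without overlap. In locus 71733, L71733_T7_21 had 312.1, 334.5 and 1450.9 RPKM in aposporous ovules, against 218.8, 214.7 and 77.0 RPKM in sexual ovules, with aposporous pool 3 far above the rest.

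When each library was left out in turn and the rule applied to the other 5, loci 260, 1204, 1334, 7496 and 10051 met it every time. A margin cannot narrow when a library is left out, so only the read minimums can remove a locus here. Meeting the rule every time thus reflects read counts and does not show that the pools agree. Locus 4654 was lost only without sexual pool 1, the sexual library with reads of L4654_T14_120. Locus 3291 was lost without each of the aposporous libraries. Loci 301 and 975 met the rule only without sexual pool 3, and locus 828 only without aposporous pool 2. All of these losses came from the read minimums, which are harder to meet with 5 libraries. L301_T252_420, L975_T91_103 and the higher variants of locus 3291 had 10 or more reads in aposporous libraries alone. In all sexual libraries together, L301_T252_420 had 13 reads and L975_T91_103 had 14 reads. The losses therefore do not show that a contrast depended on a single pool. Each margin is set by 1 aposporous and 1 sexual pool. Aposporous pool 1 held the lowest aposporous value in 6 of 11 higher variants and the highest aposporous value in 6 of 10 lower variants. Sexual pool 2 held the highest sexual value in 5 of 11 higher variants. Sexual pools 1 and 3 each held the lowest sexual value in 4 of 10 lower variants. Whether a pool set the limit more often than an even split would give was not tested.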

How the data were processed

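The authors built a joint de novo assembly from aposporous and sexual reads, counted the 6 libraries against it in CLC Genomics Workbench 7 with default settings, and deposited an RPKM value per transcript and library. Columns were matched to pools by the library names in the labels, and 0 columns were left without a sample. Transcript length was read from the transcript names. RPKM times length gave whole multiples of 1 constant per library (100.0% of values within 0.05 read), from which reads were recovered, and 1 read in a transcript of 1 kb was worth 0.0253 to 0.0341 RPKM. Floors and reads cover counting error only.

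The loci and the tests were chosen with earlier results of these data known. The rule for naming, the 12 loci with the widest smaller margin, those with the most reads or variants and those next to the limit, covered all 10 loci. Limma 3.58.1 (R 4.3.3; trend and robust options) was fitted on log2(RPKM + 1) without a replicate block, over transcripts that reached 10 reads in 3 or more libraries, with Benjamini-Hochberg adjustment at 0.05. It stands in for the count model of the study, since the deposited values are RPKM. No library repeated another of its phenotype within counting noise (the lowest chi-square per degree of freedom was 42.7). That the pools come from separate plants rests on their labels, and otherwise the spread between them may be technical. Other folds, read minimums, lengths, scalings, pseudocounts, voom, a replicate block and the omission of each library were tried as alternatives. The ratios of means without each library were computed after the data were seen. Python 3.11.15, numpy 2.4.6, pandas 2.3.3 and matplotlib 3.10.9 were used. Sequences, gene names and genome-based values were not used here.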

Additional observations from a re-analysis of the deposited data

How the results depend on the processing

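The count of loci with opposite-moving variants was 10 (11 higher and 10 lower variants), and it moved with the limits of the rule. It was 17 loci (19 higher and 20 lower variants) at a lower fold than 1.5 and 2 loci (2 and 2) at a fold of 2, namely loci 7496 and 10051. It was 5 loci (5 and 5) with 30 summed reads in each phenotype, 2 loci (2 and 2) with 10 reads in every library, namely loci 1204 and 1334, and 6 loci (6 and 6) among transcripts of 500 nt or more. Without each library in turn the count ran from 9 to 15 loci, with 9 to 17 higher and 10 to 18 lower variants, the highest of each without sexual pool 3. Of the original 10 loci, 6, 7 and 6 remained without aposporous pools 1, 2 and 3. Without sexual pools 1, 2 and 3, 6, 7 and 9 remained. Since leaving out a library cannot narrow a margin, loci were lost through the read minimums and gained through wider margins. The rest of each count were loci outside the original set, so its members changed more than its size. It was 13, 12 and 10 loci with no minimum per phenotype, median-ratio scaling and upper-quartile scaling. Limma called 497 transcripts higher and 202 lower, 262 and 90 with no filter other than 1 read in 1 library, 30 and 10 with 10 reads in every library, 250 and 75 with voom, and 29 to 373 and 10 to 105 without each library in turn. With a replicate block, limma called 264 higher and 89 lower. The labels do not state that pools with the same number belong together. Deviations of such pools correlated at 0.05, 0.06 and 0.04, and whether they were handled together was not tested. The loci with calls in both directions by limma numbered 1 with a pseudocount of 0.5, with median-ratio scaling and with upper-quartile scaling, and 0 otherwise. The median log2 ratio of locus sums lay between -0.06 and 0.09. The median difference in the share of the higher variants, 6.50 percentage points, was 8.02 in reads and 5.61 to 7.01 without each library. Of 78 recomputed log2 gaps between the widest pair of a locus, whose direction the rule fixes, 8 were counted as moved, all with a pseudocount of 1 RPKM. The limit for that count is not given here, and gaps counted as unmoved also shifted. The gap of locus 828 went from 6.06 to 7.79 with medians. That of locus 975 went from 4.06 to 2.89 with medians and to 3.18 without sexual pool 3. That of locus 10051 went from 5.19 to 6.47 without aposporous pool 1. The count therefore does not show that the gaps are independent of single libraries. The gap had no value for locus 4654 from medians or without sexual pool 1. The cause of these changes was not tested, apart from the fewer transcripts and libraries that stricter limits leave. Depth limits the variants with 13 to 23 reads in a phenotype.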

Other observations

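Locus 2, which the rule left out, had 22669 transcripts past the read minimums, of which 652 were higher and 553 lower in aposporous ovules by the same rule. The other 3 loci left out had 1 lower transcript and no higher one. Among the 1754 loci, 13 had 2 or more higher variants and 9 had 2 or more lower variants.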
